A study of Homo sapiens with 6 samples.

Results

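The genes described here encode the subunits of the proteasome, its activators, its inhibitor and its assembly chaperones, measured as mRNA in HK2 cells that overexpressed SIRT4. They were taken as every row of the count table whose symbol was PSM followed by a letter from A to G and a number, with at least 10 counts in at least 3 samples. Of 38100 genes in the table, 48 had such a symbol and 46 met the count minimum. These 46 comprised 17 genes of the 20S core (7 PSMA and 10 PSMB), 24 genes of regulatory particles (6 PSMC, 14 PSMD and 4 PSME) and 5 genes outside both classes (PSMF1 and PSMG1 to PSMG4). The remaining pair, PSMA8 and PSMB11, which encode the testis and the thymus forms of core subunits, had no count in 5 of the 6 samples. All 46 genes passed the filter on low counts, so none was left out of the tests.

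The proteasome degrades proteins that carry ubiquitin chains. Its 20S core is a barrel of stacked rings, in which outer rings of PSMA (alpha) subunits gate the entry and inner rings of PSMB (beta) subunits hold the proteolytic sites. The 19S regulatory particle, made of PSMC ATPases and PSMD subunits, binds ubiquitinated substrates, removes the chain, unfolds the protein and feeds it to the core. PSME proteins form other caps. In response to interferon, PSMB8, PSMB9 and PSMB10 replace PSMB5, PSMB6 and PSMB7 to give the immunoproteasome, which produces peptides for MHC class I. The transcription factor NRF1, encoded by NFE2L1, raises most proteasome genes together when proteasome activity is short.

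HK2 is an established line of human kidney tubular epithelial cells. All samples were stimulated with TGF-β1, a driver of kidney fibrosis. The samples carried either a control adenovirus (AdCtrl, 3 samples) or an adenovirus for the sirtuin SIRT4 (AdSIRT4, 3 samples), and the labels give the genotype as WT, with no dose or time. The study states that n denotes technical replicates in its experiments in vitro, so the p-values may measure technical spread only. RNA was selected for poly-A tails and primed with random hexamers, and the strand setting of the counting was not given in the sources used here.

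The labels were checked first. SIRT4 had 31, 47 and 57 counts in AdCtrl replicates 1 to 3 and 1996, 7995 and 6827 counts in AdSIRT4 replicates 1 to 3. Total counts per sample lay between 41537353 and 85684748. AdSIRT4 replicate 1 stood apart from the other 5 samples. Across the 17720 genes tested, its deviation from the mean of its own group fell with gene length (Spearman's rho -0.58 across genes). In the other samples rho was between -0.18 and 0.51. Deviations within a group are tied to each other, so the 0.50 and 0.51 of AdSIRT4 replicates 2 and 3 partly mirror replicate 1. Relative to the AdCtrl mean, rho was -0.53, 0.13 and 0.25 in AdSIRT4 replicates 1 to 3. The main results are therefore given with and without this sample. Of 10 tubular epithelial markers, 10 passed the filter, with CDH1 at only 0.504 to 0.869 CPM (counts relative to the TMM-scaled library size), while of 10 proximal tubule markers LRP2, AQP1, SLC22A6, ANPEP and HNF4A did not pass. The summed level of the proximal tubule markers was 229 to 251 CPM in AdCtrl and 213 to 223 CPM in AdSIRT4, most of it from GGT1. Of the markers of other cell types, VWF, CDH5, KDR (endothelial), PTPRC, CD3E (immune), PDGFRA and COL3A1 (fibroblast) did not pass the filter, while CD68 (immune) was at 31.6 to 46.5 CPM and the fibroblast markers COL1A1 and LUM were at 17.7 to 26.6 and 14.5 to 22.0 CPM.

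Promoter sequences are shown for the genes on which the results turn, because 2 transcription factor families are known to act on proteasome genes. The sequences are from RefSeq (GRCh38.p14) and span 250 bases before to 50 bases after an annotated start. Of the 46 genes, 40 had an entry, and PSMA7, PSMB1, PSMB6, PSMB7, PSMD4 and PSMG3 had none. The letters GAAA, any 2 bases and GAAA again, as bound by interferon regulatory factors, were searched on both strands and overlapping matches were allowed. They were found in 7 of the 40 genes (17.5%) and in 4.38% of all 27305 genes with an entry. PSMB9, also a gene of the immunoproteasome, had no match. The 30 bases around the match follow for the 4 genes of the immunoproteasome and its cap that had one. They are read along the gene's strand, with the matching letters in capitals (reverse complement in PSMB8 and PSME1).
PSMB8, minus strand, chr6:32844032-32844061: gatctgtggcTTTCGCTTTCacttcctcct
PSMB10, minus strand, chr16:67936852-67936881: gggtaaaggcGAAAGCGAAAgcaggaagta
PSME1, plus strand, chr14:24136189-24136218: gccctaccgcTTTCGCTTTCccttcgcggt
PSME2, minus strand, chr14:24146619-24146648: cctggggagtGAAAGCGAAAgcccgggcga

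The matches began at positions -4 (PSMB8), -21 (PSMB10), 6 (PSME1) and -28 (PSME2) from an annotated start. For PSMB8 this start lies inside the gene's span (chr6:32840717-32844679) and is not its outermost one. The other 3 genes with a match were PSMA4, PSMB4 and PSMG4. The core letters of the antioxidant response element, TGACNNNGC, which NRF1 and NRF2 bind with small MAF proteins, were found in 15 of the 40 genes (37.5%) and in 16.1% of all genes. They are shown for PSMD12, the gene whose groups did not overlap, and for PSMB3 as a core subunit.
PSMD12, minus strand, chr17:67366723-67366752: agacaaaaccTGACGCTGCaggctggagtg
PSMB3, plus strand, chr17:38752627-38752656: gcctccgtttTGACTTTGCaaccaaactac

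A match of letters describes the sequence and does not show that a factor was bound in these cells.

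The comparison of AdSIRT4 with AdCtrl asks whether SIRT4 overexpression altered proteasome gene expression under TGF-β1. With all 6 samples, none of the 46 genes passed the test (edgeR's quasi-likelihood test, lowest Benjamini-Hochberg adjusted p 0.626). DESeq2 also called none (0.643% of all genes). Of all 17720 genes, 2 passed (0.0113%). At an unadjusted p under 0.05 there was 1 proteasome gene, PSMD12, against 7.93% of all genes. The log2 fold change of AdSIRT4 over AdCtrl was above 0 for 17 of 17 core genes, with a median of 0.22, and for 19 of 24 regulatory genes, with a median of 0.11, against a median of 0.021 for all genes tested. The median for the inhibitor and the chaperones was 0.091, with 5 of 5 genes above 0.

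The direction of these medians rested on 1 library. AdSIRT4 replicate 1 lay above all 3 AdCtrl samples for 39 of the 46 genes, including 17 of 17 core genes and 18 of 24 regulatory genes, against 41.3% of all genes. It lay below all AdCtrl samples for 2 genes, PSMD5 and PSME4, against 41.3%. The median core gene was 1.65-fold above the AdCtrl mean in this library and the median regulatory gene 1.34-fold. In AdSIRT4 replicate 2, 5 of the 46 genes lay above all AdCtrl samples (30.8% of all genes) and 16 below them (30.6%). In AdSIRT4 replicate 3, 3 lay above (32.7%) and 31 below (31.9%). The median core gene stood at -0.065 and -0.16 on the log2 scale relative to the AdCtrl mean in replicates 2 and 3, and the median regulatory gene at -0.0077 and -0.059. Proteasome genes took 0.444% to 0.466% of all counts in AdCtrl, 0.593% in AdSIRT4 replicate 1, and 0.440% and 0.422% in AdSIRT4 replicates 2 and 3.

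**Figure D1:**
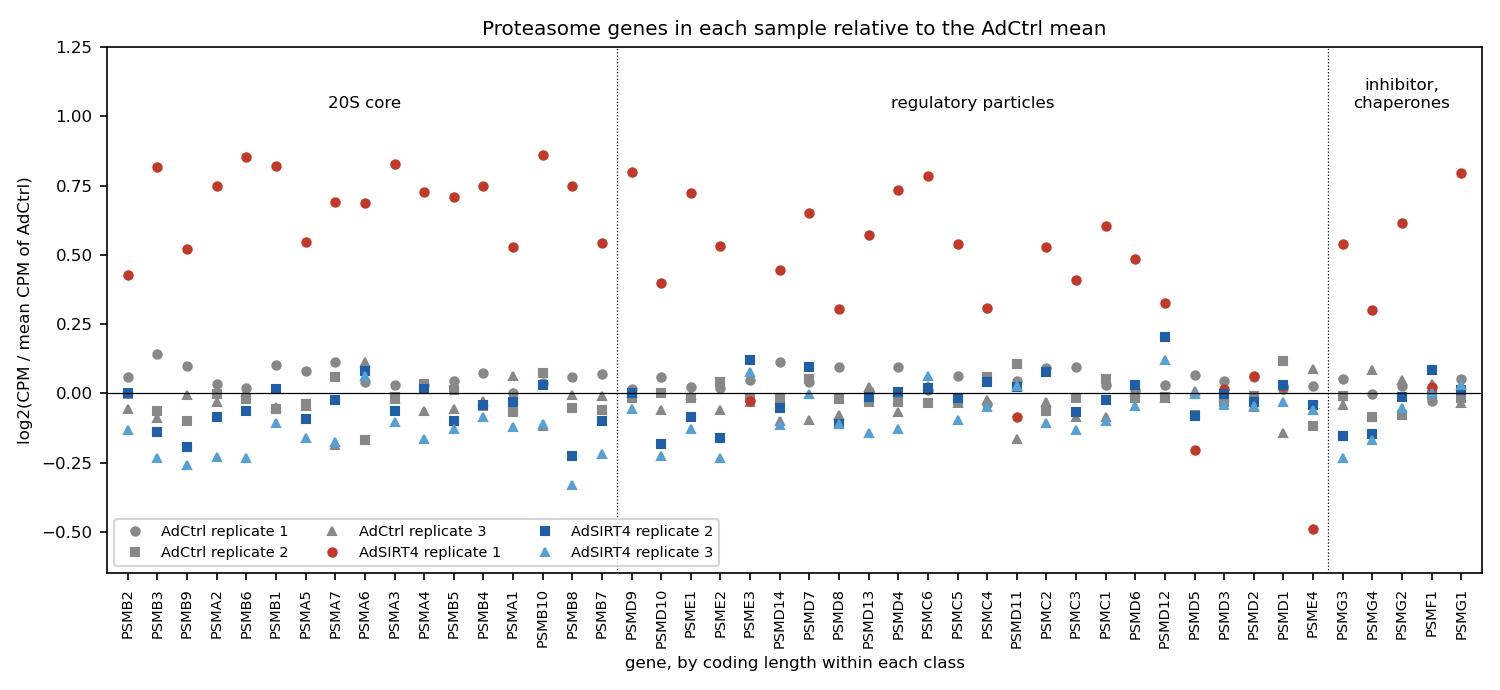
Each point is 1 sample, plotted as log2 of its CPM over the mean CPM of the 3 AdCtrl samples (vertical axis) for each of the 46 proteasome genes (horizontal axis, by coding length within each class). AdSIRT4 replicate 1 (red) lies above every AdCtrl sample (grey) for all 17 core genes and below them for PSMD5 and PSME4, while AdSIRT4 replicates 2 and 3 (blue) lie near or below 0 for most genes and above every AdCtrl sample for PSMD12 and PSME3.

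Without AdSIRT4 replicate 1, the direction turned. The log2 fold change was then below 0 for 16 of 17 core genes (median -0.10) and for 19 of 24 regulatory genes (median -0.045) and 3 of the 5 inhibitor and chaperone genes (median -0.037), against a median of -0.0028 for all genes. PSMB8, PSMD10 and PSME2 fell (adjusted p 0.0193, 0.0473 and 0.0469), and no gene rose. These are 3 of 46 genes, where 6.71% of all genes passed the same test and 3.34% passed it as lower. At an unadjusted p under 0.05, 12 proteasome genes were lower, against 12.5% of all genes. These were PSMA2, PSMA5, PSMB3, PSMB5 to PSMB9, PSMD10, PSME1, PSME2 and PSMG3. Both remaining AdSIRT4 samples were below all AdCtrl samples for 15 genes, 9 of them core genes, against 20.7% of all genes, and above them for 2, PSMD12 and PSME3, against 21% of all genes. With all 6 samples, the groups did not overlap for 1 higher gene, PSMD12 (9.66% of all genes), and for no lower gene (9.77%).

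When each library's trend on gene length was removed before the test, the medians with all samples were 0.075 for the core and 0.039 for the regulatory genes, and no proteasome gene passed (0.0677% of all genes). With the trend removed and AdSIRT4 replicate 1 left out, the medians were -0.062 and -0.0057, and PSMB8 was the only proteasome gene past the threshold (adjusted p 0.0299), where 7.58% of all genes passed. When AdSIRT4 replicate 1 was left out and the replicate number was blocked, an alternative added after the data were seen, PSMB8, PSME2 and PSMD10 fell (adjusted p 0.00135, 0.00869 and 0.0222) and PSMD12 rose (0.17, adjusted p 0.0299), which are 4 of 46 genes against 13.8% of all genes. With only AdSIRT4 replicates 2 and 3 in the group, a test without the block rests on 2 samples against 3. With the block, AdCtrl replicate 1 has no partner and adds nothing to the group difference. The blocked test then rests on replicates 2 and 3 of each group only, so its adjusted p-values and shares called need more caution.

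**Figure D2:**
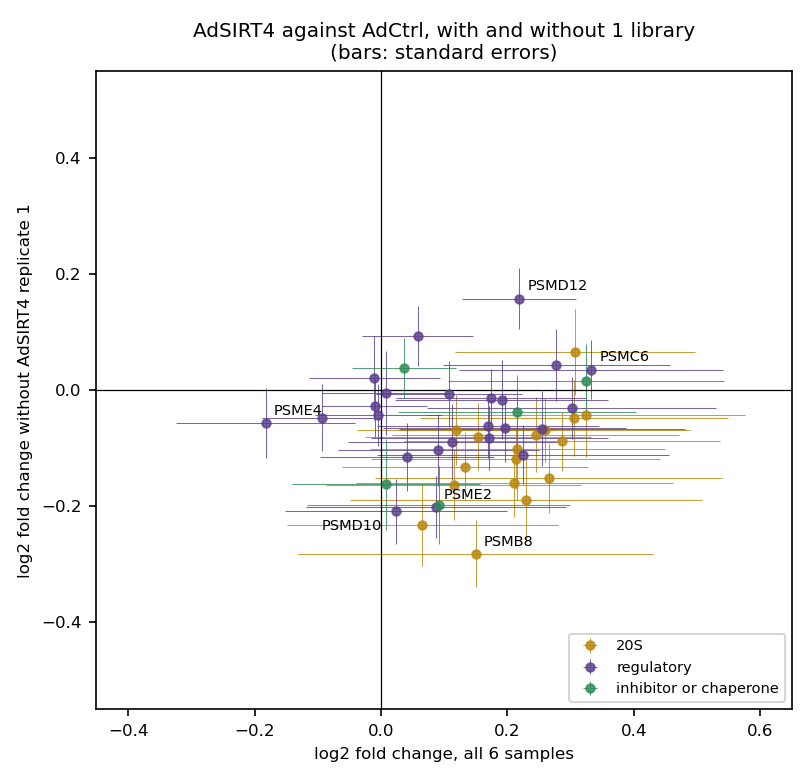
Each point is 1 of the 46 proteasome genes, with its log2 fold change of AdSIRT4 over AdCtrl from all 6 samples (horizontal axis) and without AdSIRT4 replicate 1 (vertical axis), and bars are standard errors. Most points lie right of 0 and below 0, with PSMB8 lowest at -0.28 and PSMD12 highest at 0.16 on the vertical axis.

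Among the catalytic core subunits, PSMB5 carries the chymotrypsin-like, PSMB6 the caspase-like and PSMB7 the trypsin-like site. PSMB5 was measured at 94.7, 92.6 and 88.2 CPM in AdCtrl and at 149.9, 85.7 and 84.0 CPM in AdSIRT4 replicates 1 to 3. PSMB6 was at 59.0, 57.4 and 58.4 CPM in AdCtrl and at 105, 55.7 and 49.5 CPM in AdSIRT4. PSMB7 was at 121, 110 and 114 CPM in AdCtrl and at 167, 107 and 98.7 CPM in AdSIRT4. All 3 genes had the same order of samples: AdSIRT4 replicate 1 was highest and replicates 2 and 3 were below every AdCtrl sample, so the groups overlapped. Their log2 fold changes were 0.21 ± 0.23, 0.27 ± 0.27 and 0.11 ± 0.20 (SE) with all samples, and -0.12 ± 0.053, -0.15 ± 0.061 and -0.16 ± 0.061 without AdSIRT4 replicate 1, with adjusted p of at least 0.131 in both fits.

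The 3 interferon-inducible counterparts did not share 1 pattern. PSMB8 was at 114, 106 and 109 CPM in AdCtrl and at 184, 93.8 and 87.1 CPM in AdSIRT4. PSMB9 was at 39.9, 34.8 and 37.1 CPM in AdCtrl and at 53.6, 32.6 and 31.2 CPM in AdSIRT4. Both were below every AdCtrl sample in AdSIRT4 replicates 2 and 3 and above them in replicate 1. PSMB10 was at 45.6, 46.7 and 41.0 CPM in AdCtrl and at 80.5, 45.4 and 41.1 CPM in AdSIRT4, so that replicates 2 and 3 lay within the AdCtrl range. The log2 fold change of PSMB8 was 0.15 ± 0.28 with all samples (adjusted p 0.869) and -0.28 ± 0.058 without AdSIRT4 replicate 1 (adjusted p 0.0193). That of PSMB9 was 0.066 ± 0.21 and -0.23 ± 0.072 (adjusted p 0.922 and 0.0778), and that of PSMB10 was 0.32 ± 0.25 and -0.042 ± 0.073 (adjusted p 0.750 and 0.766). PSMB8 (chr6:32840717-32844679) and PSMB9 (chr6:32854192-32859851) lie close together in the MHC class II region, while PSMB10 is on chromosome 16. PSMB8 overlaps the antisense gene PSMB8-AS1, so its count may hold reads of both.

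Because AdSIRT4 replicate 1 was shifted for nearly all proteasome genes with a short coding sequence, the counterparts were also compared within each library. They are given as ratios of FPKM, a value per length. The ratio of PSMB8 to PSMB5 was 1.09, 1.03 and 1.12 in AdCtrl and 1.12, 0.994 and 0.937 in AdSIRT4. The ratio of PSMB9 to PSMB6 was 0.548, 0.491 and 0.515 in AdCtrl and 0.412, 0.473 and 0.509 in AdSIRT4. The ratio of PSMB10 to PSMB7 was 0.380, 0.427 and 0.362 in AdCtrl and 0.484, 0.426 and 0.419 in AdSIRT4. In all 3 pairs the groups overlapped, and only for PSMB10 to PSMB7 was AdSIRT4 replicate 1 the highest of all samples by a clear margin. The inducible PSMB8 thus had about the level per length of PSMB5 in each library, while PSMB9 and PSMB10 were lower than PSMB6 and PSMB7.

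Of the structural core subunits, PSMA6 and PSMB1 had the smallest p with all samples. PSMA6, an alpha subunit, was at 107, 92.1 and 112 CPM in AdCtrl and at 167, 109 and 108 CPM in AdSIRT4 (log2 fold change 0.31 ± 0.19, adjusted p 0.720). PSMB1 was at 172, 154 and 155 CPM in AdCtrl and at 283, 162 and 149 CPM in AdSIRT4 (0.31 ± 0.24, adjusted p 0.757). Only AdSIRT4 replicate 1 was outside the AdCtrl range on the high side, and without it the log2 fold changes were 0.065 ± 0.074 and -0.048 ± 0.065. PSMA6 was the only core gene above 0 in that fit. PSMA6 has 4 pseudogenes named after it and overlaps a readthrough gene, PRORP-PSMA6, so its count may be shared. The other 9 structural core genes had log2 fold changes between 0.12 and 0.29 with all samples.

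In the 19S base, the 6 PSMC genes encode the ATPases of the unfolding ring. All 6 were above every AdCtrl sample in AdSIRT4 replicate 1, and their log2 fold changes were between 0.091 and 0.33 with all samples and between -0.10 and 0.036 without it. PSMC6 had the largest, from 59.3, 57.4 and 59.9 CPM in AdCtrl to 101, 59.6 and 61.5 CPM in AdSIRT4 (0.33 ± 0.21, adjusted p 0.724). AdSIRT4 replicate 2 was within the AdCtrl range for PSMC6 and replicate 3 just above it, and the log2 fold change was 0.036 ± 0.050 without AdSIRT4 replicate 1.

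The 14 PSMD genes, of which 10 had log2 fold changes above 0 and 4 below with all samples, differed in sign, and none passed the test. PSMD12, a lid subunit of the 19S particle (chr17:67337916-67366577, minus strand), was at 54.9, 53.4 and 53.3 CPM in AdCtrl and at 67.4, 62.0 and 58.6 CPM in AdSIRT4. It was the only proteasome gene for which all 3 AdSIRT4 samples were above all 3 AdCtrl samples. Its log2 fold change was 0.22 ± 0.091 with all samples and 0.16 ± 0.053 without AdSIRT4 replicate 1. The adjusted p was 0.626 and 0.0969, the unadjusted p was 0.0466 and 0.0119, and the two-sided exact permutation test gave p = 0.1, the smallest that 3 against 3 samples allow. With the replicate number as a block, the unadjusted p of PSMD12 was 0.0807 with all samples, and its adjusted p was 0.0299 without AdSIRT4 replicate 1.

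PSMD10 encodes gankyrin, a chaperone of base assembly that also binds cell cycle regulators. It was at 62.1, 59.8 and 57.2 CPM in AdCtrl and at 78.7, 52.6 and 51.0 CPM in AdSIRT4. AdSIRT4 replicate 1 was highest and the other pair lowest of all samples. Its log2 fold change was 0.024 ± 0.18 with all samples (adjusted p 0.965) and -0.21 ± 0.056 without AdSIRT4 replicate 1 (adjusted p 0.0473). The gene lies at chrX:108084207-108091542 and overlaps ATG4A, and 3 pseudogenes are named after it, so its count may be shared.

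PSMD7, a lid subunit that pairs with the deubiquitinase PSMD14, was at 107, 108 and 97.8 CPM in AdCtrl and at 164, 112 and 104 CPM in AdSIRT4 (0.28 ± 0.18, adjusted p 0.731). PSMD9, another base chaperone, was at 48.7, 47.6 and 48.2 CPM in AdCtrl and at 83.7, 48.2 and 46.3 CPM in AdSIRT4 (0.30 ± 0.23, adjusted p 0.749). PSMD6, a lid subunit, was at 85.2, 83.3 and 84.7 CPM in AdCtrl and at 118, 86.1 and 81.6 CPM in AdSIRT4 (0.17 ± 0.15, adjusted p 0.767). For these genes too, AdSIRT4 replicate 1 was far above the AdCtrl samples, and the log2 fold changes without it were 0.044, -0.031 and -0.013. The large scaffold subunits behaved otherwise. PSMD1 was at 135, 145 and 121 CPM in AdCtrl and at 136, 137 and 131 CPM in AdSIRT4, and PSMD2 at 443, 423 and 411 against 444, 417 and 413 CPM. Their log2 fold changes were 0.0081 ± 0.10 and -0.0043 ± 0.10, with no library apart from the others. This was not particular to the scaffold subunits. PSMD3 and PSMD11 were within the AdCtrl range in AdSIRT4 replicate 1 too (105 and 66.0 CPM). The log2 fold changes of PSMD3 and PSMD11 with all samples were -0.010 ± 0.083 and -0.010 ± 0.10.

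The 4 PSME genes encode other caps. PSME1 and PSME2 form the interferon-inducible 11S ring, PSME3 forms a nuclear ring, and PSME4 encodes the large single-chain activator PA200. PSME1 was at 157, 153 and 154 CPM in AdCtrl and at 255, 146 and 141 CPM in AdSIRT4. PSME2 was at 78.0, 79.3 and 73.9 CPM in AdCtrl and at 111, 68.9 and 65.5 CPM in AdSIRT4. For both genes AdSIRT4 replicate 1 was highest and replicates 2 and 3 were below every AdCtrl sample. The log2 fold change of PSME1 was 0.23 ± 0.23 with all samples and -0.11 ± 0.051 without AdSIRT4 replicate 1 (adjusted p 0.788 and 0.204), and that of PSME2 was 0.087 ± 0.21 and -0.20 ± 0.053 (adjusted p 0.893 and 0.0469). PSME2 has 6 pseudogenes named after it, whose reads may be counted with it.

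PSME3 and PSME4 were not raised in AdSIRT4 replicate 1. PSME3 was at 94.5, 90.2 and 89.3 CPM in AdCtrl and at 89.6, 99.2 and 96.4 CPM in AdSIRT4. Here AdSIRT4 replicate 1 was within the AdCtrl range and the other pair above it. PSME4 was at 78.8, 71.3 and 82.3 CPM in AdCtrl and at 55.2, 75.3 and 74.2 CPM in AdSIRT4, so that replicate 1 was lowest of all samples and the other pair within the AdCtrl range. Their log2 fold changes were 0.058 ± 0.088 and -0.18 ± 0.14 with all samples (adjusted p 0.845 and 0.750) and 0.094 ± 0.052 and -0.057 ± 0.061 without AdSIRT4 replicate 1. Within each library, the FPKM ratio of PSME2 to PSME1 was 0.600, 0.627 and 0.581 in AdCtrl and 0.528, 0.573 and 0.563 in AdSIRT4. All 3 were below the AdCtrl samples, but narrowly, with 0.573 against 0.581 as the nearest values. How often the ratios of other gene pairs separate in this way was not determined, so no difference is read from it. The ratio of PSME4 to PSME1 was 0.0666, 0.0620 and 0.0711 in AdCtrl and 0.0287, 0.0686 and 0.0699 in AdSIRT4, with only replicate 1 outside the AdCtrl range.

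Outside the particle, PSMF1 encodes the inhibitor PI31 and PSMG1 to PSMG4 encode the chaperones that assemble the alpha ring. PSMF1 was at 80.1, 81.2 and 83.5 CPM in AdCtrl and at 82.9, 86.5 and 81.6 CPM in AdSIRT4, with the groups interleaved (0.036 ± 0.083, adjusted p 0.889). PSMG1 was at 29.8, 28.4 and 28.1 CPM in AdCtrl and at 49.96, 29.02 and 29.4 CPM in AdSIRT4 (0.32 ± 0.22, adjusted p 0.732). Only AdSIRT4 replicate 1 was outside the AdCtrl range of PSMG1, and the log2 fold change without it was 0.016 ± 0.064. PSMG3 and PSMG4 were below all AdCtrl samples in AdSIRT4 replicates 2 and 3, and neither passed the test in either fit.

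Levels between genes were compared per length, as FPKM. In AdCtrl the highest mean levels were those of PSMB4 (193 ± 10.7 FPKM, SD, n = 3), PSMB1 (160 ± 10.6), PSMA7 (158 ± 13.2), PSME1 (142 ± 5.19) and PSMD2 (130 ± 4.55). PSMB1 and PSMA7 differed by less than their SDs. The lowest were PSMF1 (9.08 ± 0.492 FPKM), PSME4 (9.49 ± 0.978) and PSMD12 (10.9 ± 0.367), of which PSMF1 and PSME4 differed by less than the SD of PSME4, and PSMD12 was level with PSMG4 (10.99 ± 0.744). Within the core, the subunits of which are built into the particle in fixed numbers, levels ran from PSMA5 (25.9 ± 1.43 FPKM) to PSMB4. These ranks depend on the gene model length, which was 9053 bases for PSMF1, 8259 for PSME4, 4973 for PSMD12 and 4348 for PSMA5. In CPM the AdCtrl means were 81.6 for PSMF1, 53.9 for PSMD12 and 112 for PSMA5, against 16.1 for PSMG4. PSMA4 varied in the FPKM table (27.9, 41.5 and 31.2 FPKM in AdCtrl), while its CPM were close (112, 113 and 105), so its FPKM rank is uncertain.

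**Figure D3:**
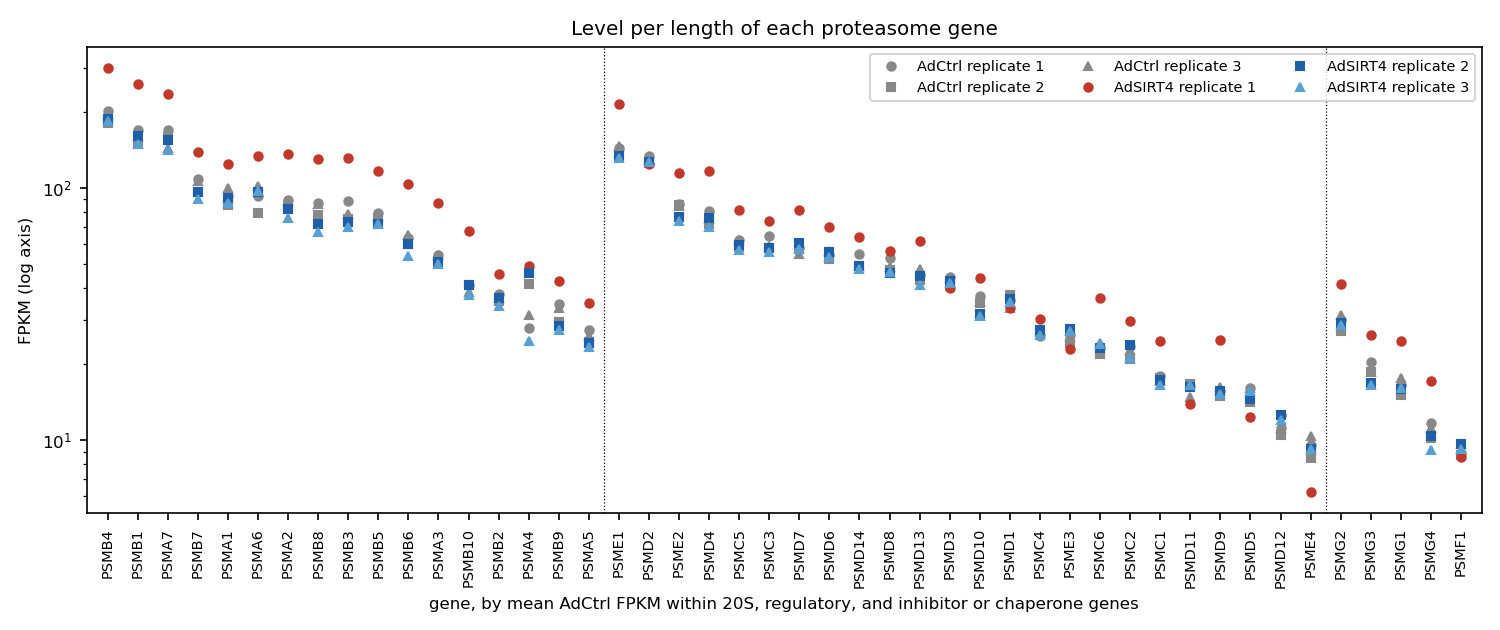
FPKM of each proteasome gene (vertical log axis), with 1 point per sample, ordered by the AdCtrl mean within the core, regulatory, and inhibitor or chaperone genes. PSMB4 is highest and PSMF1 lowest in AdCtrl, and AdSIRT4 replicate 1 (red) lies above the other samples for most short genes.

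The difference of AdSIRT4 replicate 1 from AdCtrl moved with the length of the genes. Across the 46 genes, Spearman's rho between coding length and the log2 difference from the AdCtrl mean was -0.46 in AdSIRT4 replicate 1, 0.42 in replicate 2 and 0.58 in replicate 3. With the length of the whole gene model, rho was -0.60, 0.43 and 0.52, against -0.53, 0.13 and 0.25 across all genes tested. The 3 differences share the AdCtrl mean, and genes of 1 library are not independent. In AdSIRT4 replicate 1, the median difference was 0.69 (1.61-fold) for the 29 genes with a coding length of 366 to 972 bases, 0.57 for the 5 genes of 1050 to 1218 bases and 0.18 for the 12 genes of 1254 to 5529 bases. The highest value was 0.86 for PSMB10 (819 bases) and the lowest -0.49 for PSME4 (5529 bases). All 17 core genes were in the shortest class, so core and regulatory genes cannot be compared at equal length over the whole range. PSME3 (801 bases) and PSMF1 (813 bases) were exceptions among the short coding sequences, with -0.028 and 0.023. Their whole gene models were long, at 3644 and 9053 bases. Long models alone did not set them apart, since PSMB2 (5066 bases) and PSMA5 (4348 bases) stood at 0.43 and 0.55 in this library. The part of the length trend in the results was not tested beyond the fits with the trend removed.

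Genes that act with the proteasome were counted from lists. No gene of 4 such lists passed the edgeR test with all samples. Of all genes, 0.643% passed DESeq2 with all samples. Without AdSIRT4 replicate 1, 6.71% of all genes passed the edgeR test, and 13.8% passed with the replicate block added. The groups did not overlap for 9.66% of all genes as higher and 9.77% as lower. Of 14 associated proteins and assembly factors, 11 were above 0 and 3 below (median 0.11). Without AdSIRT4 replicate 1, 6 were above 0 and 8 below (median -0.014), UBLCP1 rose and AKIRIN2 fell. UBLCP1, a phosphatase of the nuclear proteasome, was at 19.8, 19.0 and 17.7 CPM in AdCtrl and at 28.2, 23.1 and 25.8 CPM in AdSIRT4, with the groups apart (0.45 ± 0.11, adjusted p 0.494 with all samples, and 0.0207 without AdSIRT4 replicate 1). AKIRIN2, which carries proteasomes into the nucleus, was at 42.4, 41.9 and 41.99 CPM in AdCtrl and at 43.7, 36.0 and 34.6 CPM in AdSIRT4 (adjusted p 0.0259 without AdSIRT4 replicate 1), and was named after its values were seen. The ubiquitin receptor ADRM1, the thioredoxin-like TXNL1 and the deubiquitinase USP14 had log2 fold changes of 0.25, 0.24 and 0.12 with all samples and of 0.12, 0.064 and 0.067 without AdSIRT4 replicate 1, and did not pass. With the replicate block added to the latter fit, ADRM1 rose (0.15, adjusted p 0.0423).

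Of 13 genes of the NRF1 route, 7 were above 0 and 6 below (median 0.028), and 9 and 4 without AdSIRT4 replicate 1 (median 0.050). NFE2L1 itself was at 275, 264 and 304 CPM in AdCtrl and at 155, 240 and 271 CPM in AdSIRT4 (-0.34 ± 0.21, adjusted p 0.718), and only AdSIRT4 replicate 1 was far below the AdCtrl samples. Without it and with the replicate block, NFE2L1 fell (-0.16, adjusted p 0.0313), in a fit where 13.8% of all genes passed. NFE2L2, which encodes NRF2, had a log2 fold change of 0.18 ± 0.12 with all samples and 0.056 ± 0.050 without AdSIRT4 replicate 1. The small MAF partners of NRF1 did not share 1 pattern. MAFF was at 42.4, 40.6 and 47.8 CPM in AdCtrl and at 72.1, 57.3 and 61.7 CPM in AdSIRT4, and MAFK at 41.3, 35.2 and 42.6 against 62.6, 53.0 and 52.2 CPM. All 3 AdSIRT4 samples were above all AdCtrl samples for both genes. Of all genes, 9.66% were higher in this way, and 6.71% passed without AdSIRT4 replicate 1. The adjusted p of MAFF was 0.494 with edgeR and 0.0352 with DESeq2 for all samples, and both genes rose without AdSIRT4 replicate 1 (0.44 ± 0.070 and 0.40 ± 0.075, adjusted p 0.00717 and 0.0138). MAFG was at 56.7, 55.2 and 62.0 CPM in AdCtrl and at 43.9, 58.7 and 65.5 CPM in AdSIRT4, with the groups overlapping (log2 fold change -0.047 ± 0.15 with all samples and 0.094 ± 0.065 without AdSIRT4 replicate 1, adjusted p 0.922 and 0.406).

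Of 20 genes of ubiquitin supply, conjugation and shuttling, 12 were above 0 and 8 below (median 0.094), and none passed in either fit. The 4 with the smallest p were the shuttle UBQLN4 (-0.16), the conjugating enzymes UBE2D3 (0.21) and UBE2D2 (0.21) and the activating enzyme UBA1 (-0.16), and their log2 fold changes without AdSIRT4 replicate 1 were -0.093, 0.052, 0.029 and -0.087. Without AdSIRT4 replicate 1, 5 of the 20 were above 0 and 15 below (median -0.070).

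Of 18 genes of antigen processing and its interferon regulators, 8 were above 0 and 10 below (median -0.057), and 6 and 12 without AdSIRT4 replicate 1 (median -0.071). TAP1, a subunit of the transporter that carries proteasome products into the endoplasmic reticulum, was at 79.7, 77.7 and 82.6 CPM in AdCtrl and at 65.3, 59.6 and 56.97 CPM in AdSIRT4. All 3 AdSIRT4 samples, replicate 1 included, were below all AdCtrl samples, unlike PSMB8, PSMB9, PSME1 and PSME2. Of all genes, 9.77% were lower in this way, and 6.71% passed without AdSIRT4 replicate 1. The log2 fold change of TAP1 was -0.40 ± 0.092 with all samples (adjusted p 0.494, and 0.0481 with DESeq2), and TAP1 fell without AdSIRT4 replicate 1 (-0.46 ± 0.052, adjusted p 0.00111). IRF1, which activates immunoproteasome genes, was at 30.9, 29.8 and 31.3 CPM in AdCtrl and at 37.0, 33.7 and 36.5 CPM in AdSIRT4. It was higher in all 3 samples (0.22 ± 0.090, adjusted p 0.619), as were 9.66% of all genes. With the replicate block and without AdSIRT4 replicate 1 its adjusted p was 0.0376, where 13.8% of all genes passed. TAPBP, which encodes tapasin, had a log2 fold change of -0.21 ± 0.13 with all samples and -0.10 ± 0.051 without AdSIRT4 replicate 1. Of the 7 proteasome genes with this interferon-type match in the promoter, PSMB8, PSME1, PSME2 and PSMG4 were below all AdCtrl samples in AdSIRT4 replicates 2 and 3, and PSMA4, PSMB4 and PSMB10 were not. Of all 46 proteasome genes 15 were below in this way, against 20.7% of all genes, and PSMB9, which has no such match, was among the 15.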

How the data were processed

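RNA was measured in 6 samples. The authors deposited unnormalized read counts per gene. Another deposited table carries no unit and was taken to hold FPKM, since for 13485 of 19099 genes it implied 1 length in all samples within 5%. The submitters' processing notes name fastp 0.21.0, HISAT2 2.1.0, StringTie 2.1.5, DESeq2 1.30.1 and hg38, with no role or order. Total counts were 53677241, 42102861 and 50190728 in AdCtrl and 41537353, 85684748 and 80040053 in AdSIRT4 replicates 1 to 3. A count of 0 allows up to 3 counts, or 0.0350 to 0.0722 CPM, for counting error only.

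All genes were fitted with edgeR 4.0.16 in R 4.3.3 (filterByExpr with a minimum count of 10, TMM, robust quasi-likelihood test), and p-values were Benjamini-Hochberg adjusted over all genes tested at a threshold of 0.05. Values are log2 fold changes with standard errors. CPM are counts relative to the TMM-scaled library size. Alternatives were DESeq2 1.42.0, limma 3.58.1 on log2(FPKM + 1) or log2(FPKM + 0.1), RLE normalization, other filters, removal of each library's lowess trend on gene length, the replicate block, and each sample left out. The replicate block without AdSIRT4 replicate 1 was added after the data were seen. Samples with the same replicate number deviated together (Pearson's r across genes 0.178, 0.159 and 0.176, against -0.188 to 0.0298 for the others). The numbers were therefore used as a block in an alternative fit, as a property of the data that the labels do not explain. Deviations within a group are tied to each other and the r values are small, so they cannot establish that the samples were paired. The scripts were tested on simulated data. Coding lengths are the longest coding sequence per gene in GENCODE 29, gene positions and promoters are from RefSeq GRCh38.p14, and no position comes from the deposited files. Pseudogenes were counted by symbol.

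The genes and lists were chosen with earlier results of these data known. Values in every sample were given for PSMB5 to PSMB10, PSME1 to PSME4, PSMF1, genes that passed the test with or without AdSIRT4 replicate 1, and 8 others with the smallest p. Of each list, up to 4 genes with the smallest p were named. Other genes named, such as PSMD1, PSMD2, PSMD5, AKIRIN2 and MAFG, were chosen after their values were seen. A gene that the rule on small p names is not reported here.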

Additional observations from a re-analysis of the deposited data

Results flagged for a closer look

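PSMA8, the testis form of an alpha subunit, was below the count minimum. It had 7 counts in AdSIRT4 replicate 2 and none in the other 5 samples, AdCtrl samples included, which is above the 3 counts that a count of 0 allows. PSMB11 had 2 counts in the same library and none elsewhere.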

How the results depend on the processing

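No proteasome gene passed the adjusted threshold in any fit of all 6 samples. With a sample left out, 0 to 4 passed, and only leaving out AdSIRT4 replicate 1 gave any: 3 with edgeR or DESeq2, 1 with the length trend removed and 4 with the replicate block. The count at an unadjusted p under 0.05 was 1, became 0 with DESeq2, with all genes with at least 1 count, with the replicate block and with the limma fits, and was 0 to 13 with a sample left out (13 without AdSIRT4 replicate 1). With all samples the block changed no adjusted call of a proteasome gene. Without AdSIRT4 replicate 1 it added PSMD12 as higher, and the 3 genes called without it remained called. The number of genes whose groups did not overlap was 5 with the length trend removed (5 higher, where 12.7% of all genes were higher and 11.6% lower) and 17 without AdSIRT4 replicate 1 (15 lower and 2 higher, where 20.7% and 21% of all genes were). With a sample left out, the median log2 fold change was -0.10 to 0.39 for the core and -0.045 to 0.22 for the regulatory genes, below 0 only without AdSIRT4 replicate 1. It was 0.12 and 0.061 on log2(FPKM + 1), with the cause not tested.

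Of the 36 genes named by rule, these changed sign. With the length trend removed, without and with the replicate block, the log2 fold changes were -0.038 and -0.039 for PSMB7, -0.025 and -0.043 for PSMB8, -0.089 and -0.089 for PSMB9, -0.074 and -0.074 for PSME2, and -0.090 and -0.091 for PSMD10. The limma fits gave -0.0080 and -0.0089 for PSMB9 and -0.034 and -0.036 for PSMD10, and the block alone gave -0.0032 for PSMD10. With a sample left out, the ranges were -0.12 to 0.36 for PSMB5, -0.15 to 0.46 for PSMB6, -0.16 to 0.26 for PSMB7, -0.28 to 0.34 for PSMB8, -0.23 to 0.20 for PSMB9, -0.042 to 0.50 for PSMB10, -0.11 to 0.37 for PSME1, -0.20 to 0.22 for PSME2, -0.0048 to 0.054 for PSMF1, -0.21 to 0.14 for PSMD10, -0.031 to 0.45 for PSMD9, -0.048 to 0.47 for PSMB1 and -0.013 to 0.27 for PSMD6. The negative ends came from leaving out AdSIRT4 replicate 1. ADRM1 passed (adjusted p 0.0479) with the length trend removed and that sample left out, and with the replicate block and that sample left out. The counts of these genes were far above the minimum, and an effect of the differences in depth was not tested.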
